A study of Mus musculus with 10 samples.

Results

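The transcripts of the heart's adrenergic and muscarinic receptors, and of the kinases and arrestins that switch such receptors off, were followed in isolated mouse heart muscle cells. They were 9 of the 38355 genes in the deposited count table, chosen by gene symbol: the adrenoceptor genes Adrb1, Adrb3, Adra1a and Adra1b, the muscarinic receptor gene Chrm2, the receptor kinase genes Adrbk1 and Grk5, and the arrestin genes Arrb1 and Arrb2. The study set 5 wildtype against 5 Epac1-PLN transgenic adult mice of the FVB/N strain, with 1 library from each animal. The Epac1-PLN transgene is a fluorescent (FRET) sensor of cAMP made in the heart. Its name joins Epac1, a protein that binds cAMP, with phospholamban, the brake of the calcium pump. Mice received no treatment, each genotype held 2 males and 3 females, and cells were freed by Langendorff perfusion, in which enzymes are passed through the coronary vessels. The sources used here do not give the promoter that drives the sensor, the number of founder lines or an age beyond adult.

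Noradrenaline and adrenaline raise the rate and force of the heart through beta-adrenergic receptors, which act through the G protein Gs and adenylyl cyclase to make cAMP. Alpha1 receptors act through Gq and phospholipase C, and the muscarinic receptor, which senses acetylcholine, opposes the beta receptors through Gi. Once a receptor is active, a receptor kinase phosphorylates its inner side. An arrestin then binds there, uncouples the G protein and draws the receptor into the cell. This loss of response is known as desensitization.

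Libraries held 10632224 to 20983754 counts, and the median Spearman correlation of a library with the others was between 0.983, in Epac1-PLN replicate 4, and 0.991. Reads at Rapgef3, the gene for Epac1, checked the labels: they lay between 10.4 and 15.9 CPM (counts scaled to a common library size) in wildtype and between 1241 and 1741 CPM in Epac1-PLN libraries. The 7 ventricular cardiomyocyte markers summed to between 86161 and 101518 CPM in wildtype and between 84596 and 96749 CPM in Epac1-PLN libraries, so the defining markers of the labelled cell type were present in every library. Markers of other cells were present as well. The 6 endothelial markers summed to 342 to 578 CPM in wildtype and 345 to 698 CPM in Epac1-PLN libraries, and the 7 macrophage and leukocyte markers to 26.4 to 53.9 CPM and 29.8 to 67.1 CPM. The 5 fibroblast markers summed to 178 to 329 CPM and 195 to 315 CPM, and the 5 smooth muscle and pericyte markers to 278 to 721 CPM and 421 to 801 CPM. These ranges overlapped between the genotypes, and 0 markers of any of these lists were called with genotype.

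The upstream sequences of Adrb1 and Grk5 are shown because these were the receptor and the kinase with the smallest p for genotype. RefSeq promoter windows (build GRCm38.p6) were matched by symbol for 4 of the 9 genes, Adrb1, Adra1b, Chrm2 and Grk5, and the 250 bases before each annotated start were searched on both strands for the core of the cAMP response element, TGACG, the letters to which the cAMP-activated factor CREB is known to bind. Capitals mark a match, and both windows lie on the plus strand, at chr19:56721867-56722116 for Adrb1 and chr19:60889499-60889748 for Grk5.
Adrb1: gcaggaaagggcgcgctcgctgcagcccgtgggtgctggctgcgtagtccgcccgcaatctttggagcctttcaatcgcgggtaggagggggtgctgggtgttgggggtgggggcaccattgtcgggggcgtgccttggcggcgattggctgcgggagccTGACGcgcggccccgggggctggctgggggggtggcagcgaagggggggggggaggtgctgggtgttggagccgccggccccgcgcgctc
Grk5: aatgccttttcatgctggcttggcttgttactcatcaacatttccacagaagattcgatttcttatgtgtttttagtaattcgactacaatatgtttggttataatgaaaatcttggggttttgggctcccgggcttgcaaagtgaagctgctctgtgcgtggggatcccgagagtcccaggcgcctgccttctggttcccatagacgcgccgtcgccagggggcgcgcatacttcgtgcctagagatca
The Adrb1 window held 1 match, which began 90 bases before the start, and the Grk5, Chrm2 and both Adra1b windows held 0. Of all 32851 windows of this length, 17.8% held these letters and 1.55% the full palindrome TGACGTCA, which was in none of the 5 windows of these genes. The Adrb1 window was rich in G and C (74.0%) and the Grk5 window was not (49.6%).

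Per length of exon, the muscarinic receptor was the most abundant of the 9 transcripts. Chrm2, which encodes the M2 receptor of the vagus nerve's signal, stood at 38.3 ± 5.03 CPM per kilobase (SD, n = 10 libraries), 2.21 times Adrbk1, the second of the order, and above it in 10 of 10 libraries with ranges that did not overlap. Adrbk1, which encodes the receptor kinase GRK2, and Adra1b, which encodes the alpha1B receptor, followed at 17.3 ± 1.51 and 15.1 ± 3.13 CPM per kilobase. Over 10 libraries their ranges overlapped. In wildtype cells they stood at 16.5 ± 1.52 and 16.6 ± 3.14 CPM per kilobase (SD, n = 5), with Adrbk1 higher in 2 of 5 libraries. In Epac1-PLN cells they stood at 18.2 ± 0.996 and 13.5 ± 2.48 CPM per kilobase (SD, n = 5), with Adrbk1 higher in 5 of 5 libraries and no overlap. Adrb1, the gene of the beta1 receptor through which most of the catecholamine response of the heart runs, came next at 9.93 ± 2.18 CPM per kilobase. Its range overlapped that of Adra1b, although it was below Adra1b in every library, and that of Grk5, although it was above Grk5 in every library and did not overlap with it within wildtype.

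Grk5, which encodes a kinase held at the cell membrane, and Adra1a, the gene of the alpha1A receptor, followed at 6.16 ± 1.61 and 5.16 ± 1.19 CPM per kilobase and overlapped in range. The arrestin transcripts were far scarcer, with Arrb2 at 1.13 ± 0.20 and Arrb1 at 0.823 ± 0.0971 CPM per kilobase. Their ranges overlapped over 10 libraries, with Arrb2 higher in 5 of 5 wildtype libraries and in 3 of 5 Epac1-PLN libraries. This order rests on exon lengths from GENCODE M21 within the deposited gene bounds. With the longest coding transcript as length, Adra1a stood at 9.81 CPM per kilobase, above Grk5 at 7.08 and next to Adrb1 at 9.93, and the other places were kept.

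Adrb3, which encodes a beta receptor best known from fat cells, was at the edge of detection. It had 1 count in wildtype replicate 5 and 0 in the other 9 libraries. A count of 0 over the 68386679 counts of the Epac1-PLN libraries allows a level of up to 0.0439 CPM (3 counts over the group, counting error only). Adrb3 did not pass the filter on low counts and was not tested. The 4 adipocyte markers (Adipoq, Plin1, Cidec and Lep) were close to absent as well, at a sum of at most 0.655 CPM in any library.

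**Figure D1:**
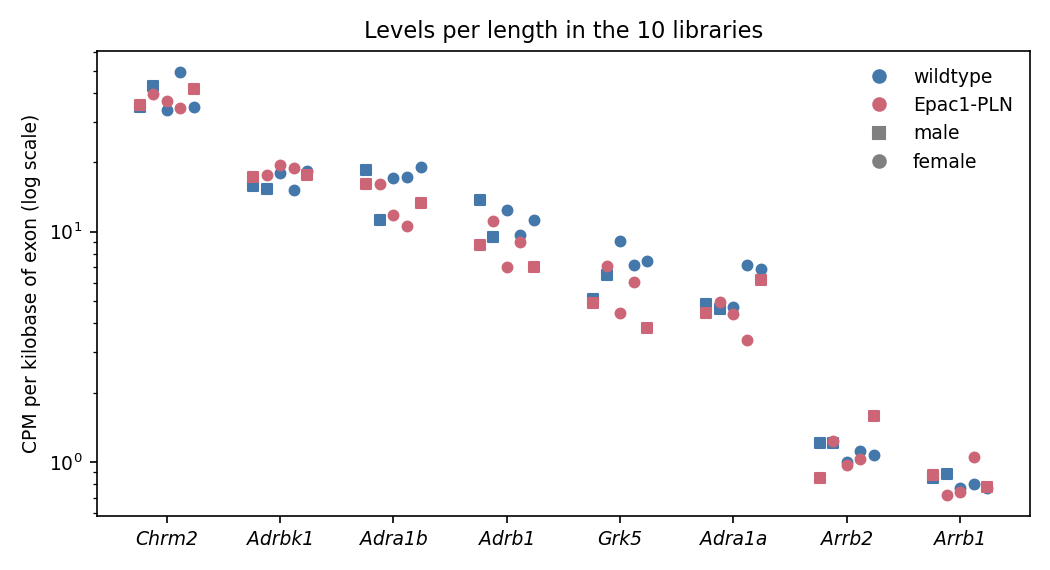
Level of each transcript, in CPM per kilobase of annotated exon on a log axis, in 10 libraries (blue wildtype, red Epac1-PLN; squares males, circles females). Chrm2 lies above all others, and Arrb2 and Arrb1 lie below the rest; Adrb3, with 1 count in all, is not drawn.

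The comparison of the genotypes asks whether heart cells that carry the sensor keep these transcripts at the level of wildtype cells. Only RNA was counted, and protein was not measured. Of the 8 tested transcripts 0 were called, at an adjusted p under 0.05 over all 12629 tested genes, by edgeR's quasi-likelihood test, by DESeq2 or by limma-voom; 0.641% of all tested genes were called by edgeR. At an unadjusted p under 0.05 stood 2 of the 8, Grk5 and Adrb1, both with lower means in Epac1-PLN cells, against 12.2% of all tested genes, or 5.4% with a lower level. Of the 8 log2 fold changes 5 were negative and 3 positive, with a median of -0.16, where the median of all tested genes was 0.00. In bulk RNA, fewer cells of a type and less RNA per cell cannot be told apart. The groups overlapped in level for all 8, while 2.75% of all tested genes did not overlap, 1.24% with the Epac1-PLN libraries lower.

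Adrb1 was at 34.2, 23.5, 30.9, 24.1 and 27.9 CPM in wildtype replicates 1 to 5 (ENSMUSG00000035283, mm10 chromosome 19, 56722372 to 56724862). In Epac1-PLN replicates 1 to 5 it was at 21.7, 27.6, 17.5, 22.5 and 17.6 CPM. Of the Epac1-PLN libraries 4 of 5 were below the lowest wildtype library, and replicate 2 lay among the wildtype values. Its log2 fold change was -0.40 with a 95% interval of -0.71 to -0.09, and an adjusted p of 0.266 (edgeR). Without any filter on low counts beyond 1 count, Adrb1 was called (adjusted p = 0.00655, edgeR), whereas over all 19 alternatives its adjusted p ranged from 0.00655 to 0.749. That setting called more genes over the whole table, 498 with genotype against 81 with the filter.

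The alpha1 receptor genes also stood lower on average. Adra1b (ENSMUSG00000050541, chromosome 11, 43774606 to 43901210) was at 62.5, 38.0, 57.8, 58.4 and 64.7 CPM in wildtype replicates 1 to 5 and at 54.2, 54.2, 39.9, 35.6 and 44.9 CPM in Epac1-PLN replicates 1 to 5. Of the wildtype libraries 4 lay above every Epac1-PLN library, and replicate 2 lay among them. The log2 fold change of Adra1b was -0.30 ± 0.16 (SE, adjusted p = 0.499, edgeR). Without the filter on low counts it was 1 of the 498 genes called (adjusted p = 0.0319, edgeR). Over its alternatives the adjusted p of Adra1b ranged from 0.0319 to 0.745.

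Adra1a (ENSMUSG00000045875, chromosome 14, 66635251 to 66733462) was at 39.3, 37.6, 38.5, 58.2 and 55.8 CPM in wildtype replicates 1 to 5. In Epac1-PLN replicates 1 to 5 it was at 36.3, 40.4, 35.8, 27.7 and 50.4 CPM. Wildtype replicates 4 and 5, both females, were the highest, and Epac1-PLN replicate 5, a male, came after them. The log2 fold change was -0.26 with a 95% interval of -0.67 to 0.14 (adjusted p = 0.630, edgeR). Leaving out wildtype replicate 4 gave -0.16. In Epac1-PLN cells, leaving out replicate 4 gave -0.15 and leaving out replicate 5 gave -0.41 (unadjusted p = 0.023, edgeR).

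Of the 4 tested receptors, Chrm2 had the fold change nearest to 0. It ranged from 204 to 299 CPM in wildtype and from 209 to 252.3 CPM in Epac1-PLN libraries, with means of 236 ± 41.4 and 227 ± 18.0 CPM (SD, n = 5 each). Its log2 fold change of -0.06 had a 95% interval of -0.29 to 0.18, which bounds any difference between 0.817-fold and 1.13-fold (ENSMUSG00000045613, chromosome 6, 36388084 to 36528414). Exons of Chrm2 overlap those of 9330158H04Rik, a long RNA on the opposite strand with 16.8 to 29.6 CPM, and the sources used here do not say whether counting used strand. Markers of atrial cells, which are known to carry much M2 receptor, summed to 21.95 to 68.4 CPM in wildtype and 27.9 to 74.8 CPM in Epac1-PLN libraries. Most of this sum was Nppa, at 18.8 to 62.6 CPM in wildtype and 19.5 to 73.1 CPM in Epac1-PLN libraries. The scarcer markers Sln, Myl7 and Myl4 were highest in replicate 1 of each genotype. The part of atrial cells in Chrm2 was not tested.

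**Figure D2:**
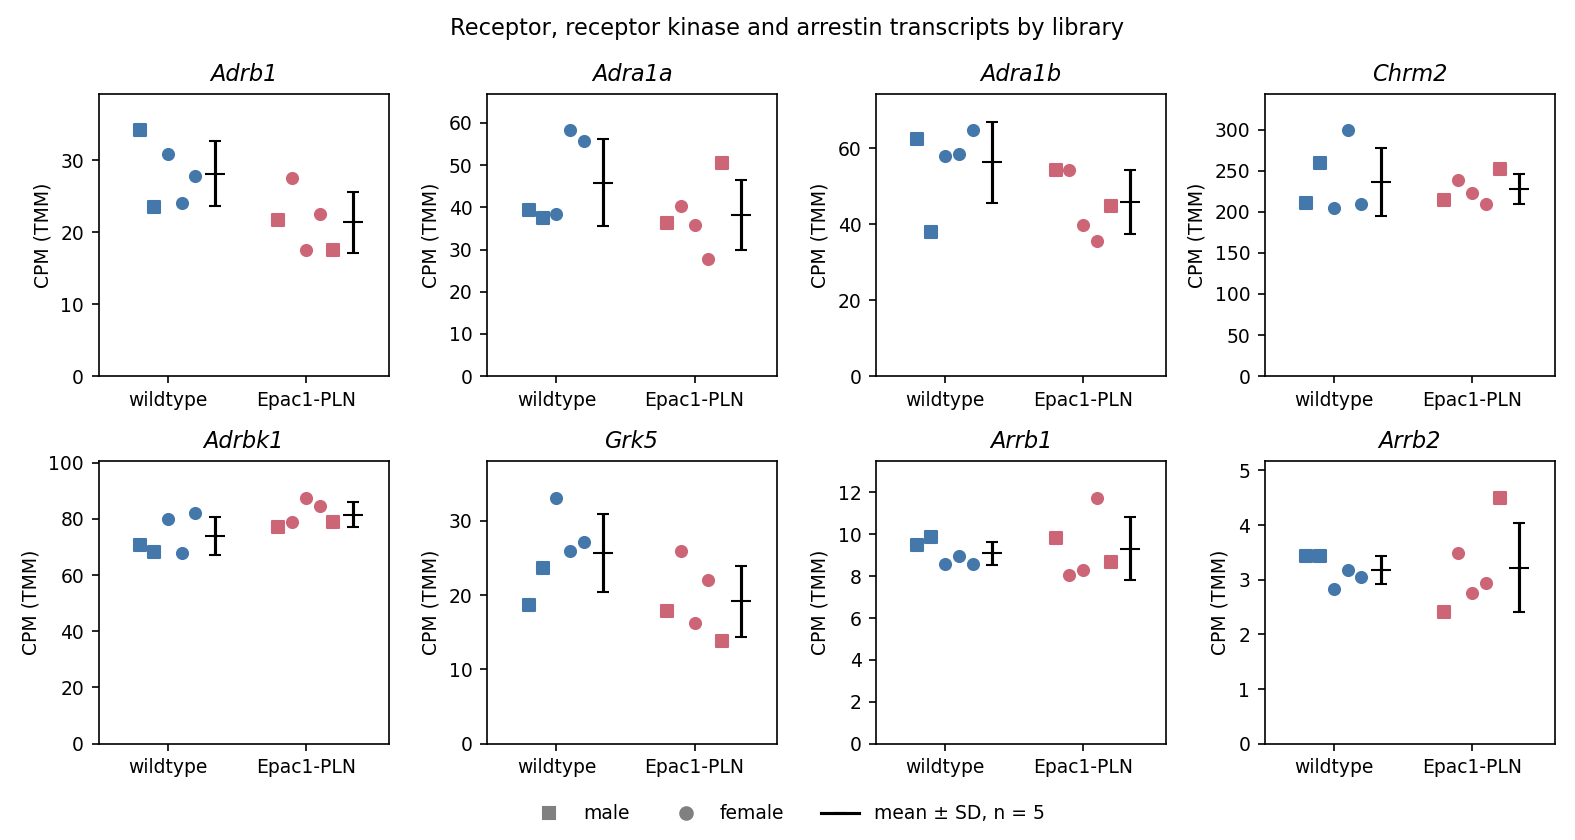
Level in CPM, scaled by TMM, of the 8 tested transcripts in each library by genotype (squares males, circles females; black marks give the mean ± SD of 5 libraries). Adrb1 and Grk5 have lower means in Epac1-PLN libraries, and the genotypes overlap in every panel.

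Of the receptor kinases, Grk5 had the smallest p of the 9 genes. Grk5 (ENSMUSG00000003228, chromosome 19, 60889749 to 61092553) was at 18.6, 23.6, 33.1, 26.0 and 27.1 CPM in wildtype replicates 1 to 5. In Epac1-PLN replicates 1 to 5 it was at 17.8, 25.9, 16.2, 22.1 and 13.8 CPM. Of the Epac1-PLN libraries 3 lay below every wildtype library, and 3 wildtype libraries lay above every Epac1-PLN library. The log2 fold change was -0.42 ± 0.13 (SE) with a 95% interval of -0.71 to -0.14, an unadjusted p of 0.00728 and an adjusted p of 0.199 (edgeR). Its adjusted p was 0.0959 with DESeq2. Without the filter on low counts Grk5 was 1 of the 498 genes called (adjusted p = 0.00523, edgeR). Over its alternatives the adjusted p of Grk5 ranged from 0.00523 to 0.694. The log2 fold change of Grk5 was negative in all 19 alternatives, from -0.51 to -0.33.

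Adrbk1 stood on the other side of 0. It was at 70.8, 68.3, 80.1, 67.8 and 82.2 CPM in wildtype replicates 1 to 5 and at 77.0, 79.0, 87.5, 84.8 and 79.0 CPM in Epac1-PLN replicates 1 to 5 (ENSMUSG00000024858, chromosome 19, 4286001 to 4306222). Of the wildtype libraries 3 were below every Epac1-PLN library. The log2 fold change was 0.14 with a 95% interval of -0.00 to 0.29 (adjusted p = 0.419, edgeR), so that a rise of more than 1.22-fold lies outside the interval.

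The share of the kinases inside each library was compared as a ratio of counts, which does not depend on how libraries are scaled. The log2 ratio of Grk5 to Adrbk1 was -1.93, -1.53, -1.28, -1.38 and -1.60 in wildtype replicates 1 to 5. It was -2.11, -1.61, -2.43, -1.94 and -2.51 in Epac1-PLN replicates 1 to 5, of which 4 lay below the lowest wildtype library. Averaged as plain ratios, there were 0.347 counts of Grk5 per count of Adrbk1 in wildtype and 0.236 in Epac1-PLN cells. The means of the log2 ratio were -1.54 ± 0.25 and -2.12 ± 0.37 (SD, n = 5 each), a difference of -0.58. The exact 2-sided permutation p was 0.0159, where 5 against 5 libraries allow 0.00794 at the least, and 0.0635 after Benjamini-Hochberg adjustment over 4 ratios, so it did not pass the correction.

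The genotypes overlapped in all 4 ratios, and the other 3 did not pass the correction either. The log2 ratio of Adrb1 to Chrm2, the sympathetic against the parasympathetic receptor, was -3.07 ± 0.45 in wildtype and -3.43 ± 0.31 in Epac1-PLN libraries (exact permutation p = 0.190, adjusted p = 0.381). That of Adra1b to Adra1a was 0.30 ± 0.31 and 0.27 ± 0.29 (exact permutation p = 0.881, adjusted p = 0.889). The ratio of the arrestins had close means, but its spread was 0.0484 in wildtype and 0.474 in Epac1-PLN libraries (SD of the log2 ratio of Arrb1 to Arrb2), where replicate 5 had the lowest and replicate 1 the highest value. Arrb2 had only 26 to 72 counts per library, so counting error adds to the spread of this ratio. Neither spread was compared with counting error, and the difference between them was not tested.

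**Figure D3:**
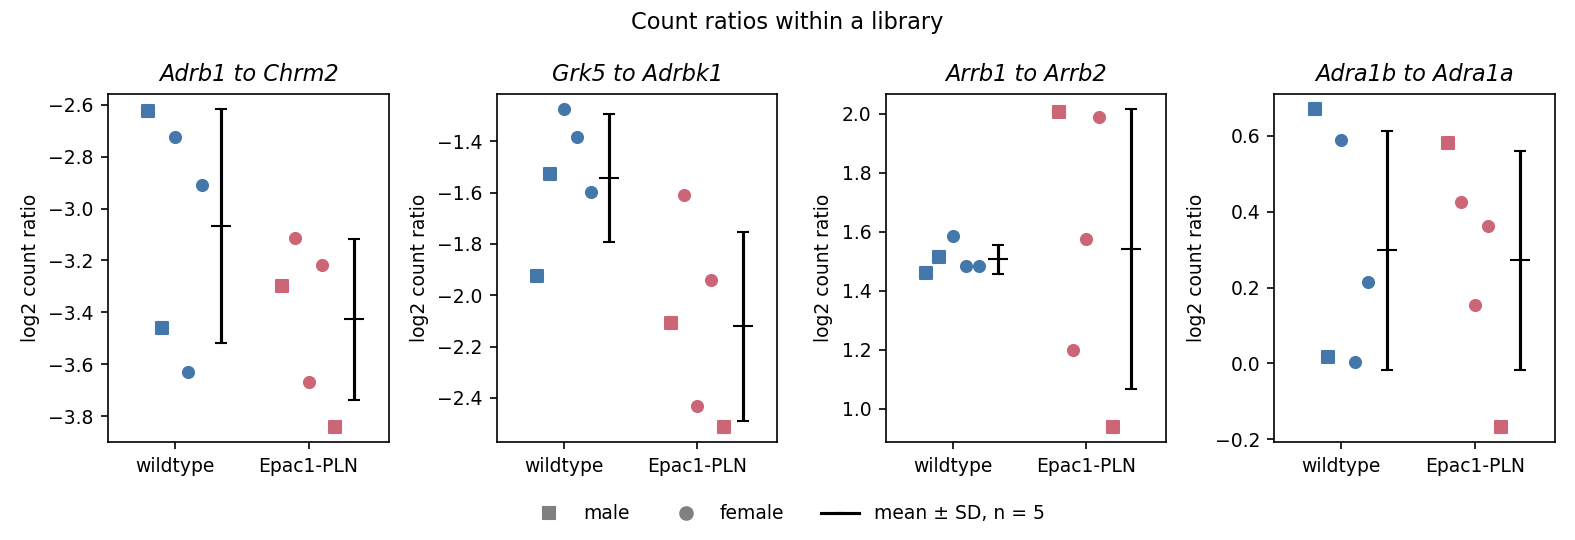
Log2 ratio of read counts of 2 genes inside each library, for 4 pairs, by genotype (squares males, circles females; black marks give the mean ± SD of 5 libraries). The Grk5 to Adrbk1 ratio is lower in 4 of 5 Epac1-PLN libraries than in any wildtype library. The Arrb1 to Arrb2 ratio is more scattered in Epac1-PLN than in wildtype libraries. It rests on 26 to 72 counts of Arrb2 per library, and the difference in scatter was not tested.

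The arrestins themselves, which bind phosphorylated receptors and also link them to clathrin and to kinase cascades, had fold changes near 0. Arrb1 (ENSMUSG00000018909, chromosome 7, 99535466 to 99606771) was at 9.09 ± 0.567 CPM in wildtype and 9.31 ± 1.52 CPM in Epac1-PLN cells, where replicate 4 was highest at 11.7 CPM. Its log2 fold change was 0.04 with a 95% interval of -0.22 to 0.30. Arrb2 (ENSMUSG00000060216, chromosome 11, 70432635 to 70440828) was at 3.18 ± 0.253 CPM and 3.22 ± 0.814 CPM, with 26 to 72 counts per library. Its log2 fold change of 0.02 had a 95% interval of -0.36 to 0.40, and Epac1-PLN replicates 1 and 5 were its lowest and highest libraries at 2.41 and 4.50 CPM. Arrestins are made by leukocytes and endothelial cells too, whose markers are given above. Epac1-PLN replicate 4, the library highest in Arrb1, also had the highest sums of the endothelial markers (698 CPM) and of the macrophage and leukocyte markers (67.1 CPM). The part of those cells was not tested.

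The sexes were compared in the same model, each genotype having 3 females and 2 males. Of the 8 transcripts 0 were called with sex (0.34% of all tested genes were), and 1 had an unadjusted p under 0.05, against 10.4% of all tested genes. This was Grk5, at a lowest, median and highest level of 16.2, 25.9 and 33.1 CPM in 6 females. In males it was at 18.6, 23.6, 17.8 and 13.8 CPM, so that the sexes overlapped. The female mean was above the male mean in wildtype (28.7 against 21.1 CPM) and in Epac1-PLN cells (21.4 against 15.8 CPM), a log2 difference of 0.44 ± 0.14 (SE, female minus male, adjusted p = 0.293, edgeR). Some markers of other cells also differed between the sexes, in either direction. The fibroblast marker Dcn, at a mean of 123 CPM in females and 196 CPM in males, was called (log2 difference -0.67, adjusted p = 0.00967, edgeR), the only one of the 5 fibroblast markers. Col1a2 and Pdgfra were lower in females too (log2 differences -0.35 and -0.07), while Col1a1 and Lum were higher (0.18 and 0.17). The atrial markers Myl7 and Myl4 had means of 0.591 and 1.97 CPM in females and of 3.59 and 6.02 CPM in males, and were not called. The sums of both lists overlapped between females and males. They were 178 to 275 CPM and 228 to 329 CPM for the fibroblast list. For the 4 atrial markers they were 21.95 to 74.8 CPM and 27.9 to 68.4 CPM. Most of the atrial sum was Nppa, which alone was at 18.8 to 73.1 CPM in females and 19.5 to 53.4 CPM in males. Its mean was higher in females, at 45.3 against 35.0 CPM, and it was not called. The part of such cells in the sex difference of Grk5 was not tested. For the other 7 transcripts the log2 differences between the sexes lay between -0.18 for Arrb2 and 0.12 for Adrbk1.

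A genotype effect that differs between the sexes was tested as an interaction. Of the 8 transcripts 0 were called by edgeR, as were 0% of all tested genes, and 0 by DESeq2 or limma-voom. With an unadjusted p under 0.05 stood Adra1a, against 3.75% of all tested genes. Adra1a averaged 50.8 CPM in wildtype and 34.6 CPM in Epac1-PLN females, and 38.4 and 43.3 CPM in males. The interaction was -0.72 ± 0.29 (log2, SE) with an unadjusted p of 0.0321 and an adjusted p of 0.993 (edgeR), and only 2 males stood in each genotype. It was called only without the filter on low counts (adjusted p = 0.0310, edgeR), a setting that called 164 genes for the interaction. In its other alternatives the adjusted p was 0.612 or more. Without Epac1-PLN replicate 5 the interaction was -0.46.

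**Figure D4:**
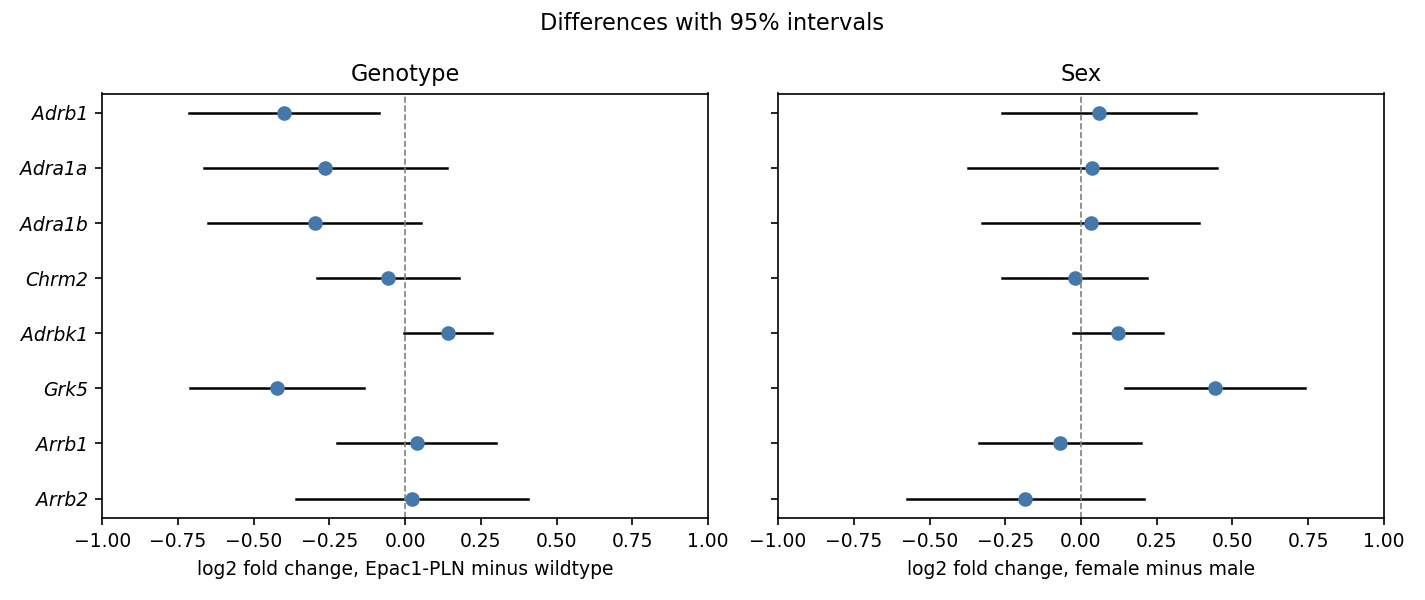
Log2 fold changes of the 8 tested transcripts with their 95% intervals, for Epac1-PLN minus wildtype (left) and for female minus male (right), from 1 edgeR fit with sex and genotype. The intervals of Adrb1 and Grk5 lie below 0 on the left and that of Grk5 above 0 on the right, before adjustment over all genes.

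The levels of the 8 transcripts were also compared with each other across the 10 libraries. Of 28 pairs 0 passed adjustment. The smallest p belonged to Adrb1 and Grk5, with Pearson's r of 0.67 (permutation p = 0.0339, adjusted p = 0.400) and Spearman's rho of 0.72 (permutation p = 0.0231, adjusted p = 0.327). Without wildtype replicate 1 and Epac1-PLN replicate 3, the libraries farthest from the median of Adrb1, r was 0.96. Both genes had lower means in Epac1-PLN libraries, and with 5 libraries per genotype no value within a genotype is given. Among 12628 other genes the patterns most like that of Adrb1 over the 10 libraries were those of Amacr, Trim45 and Phf7 (Pearson's r of 0.94, 0.93 and 0.93), and those most like that of Chrm2 were Ggps1, Ube2b and Prkaa1 (0.93, 0.93 and 0.92), given as descriptions since they were picked as the highest.

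Other genes of the pathway were read from fixed lists, and 0 of them were called with genotype in either direction. Of 9 further adrenoceptor and muscarinic receptor genes, 2 were abundant enough to be tested. Adra1d, the gene of the alpha1D receptor, was at 4.03 ± 0.987 CPM in wildtype and 4.76 ± 1.93 CPM in Epac1-PLN cells, with a log2 fold change of 0.22 (adjusted p = 0.805, edgeR), from 0.029 without Epac1-PLN replicate 4 to 0.39 without wildtype replicate 1. Chrm5 had 0 counts in all libraries, and the alpha2 receptor genes and the other muscarinic genes were at means of at most 0.362 CPM in either genotype.

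Of 6 further kinase and arrestin genes 3 were tested. Adrbk2, which encodes the GRK2 relative GRK3, was at 27.6 ± 2.59 CPM in wildtype and 32.6 ± 4.06 CPM in Epac1-PLN cells, a log2 difference of 0.24 ± 0.10 (SE, edgeR adjusted p = 0.352). Per kilobase, Adrbk2 and Grk6 stood at 3.49 ± 0.481 and 3.95 ± 0.341 CPM, below Grk5, and Grk4 at 0.408 ± 0.104. Grk6 and Grk4 had log2 fold changes of -0.15 and 0.10. The arrestins of the eye, Sag and Arr3, were not abundant enough to be tested.

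Of the 35 genes of receptor trafficking and receptor partners 33 were tested, 14 with a positive and 19 with a negative log2 fold change and a median of -0.02. The smallest p was that of Dnm1, a dynamin, which pinches off vesicles (2.39 ± 0.251 CPM in wildtype, 1.51 ± 0.270 CPM in Epac1-PLN cells and no overlap between the libraries, edgeR adjusted p = 0.166). Dnm1 had only 16 to 56 counts per library, and 2.75% of all tested genes did not overlap between the genotypes. Ap2b1, the subunit of the AP2 adaptor to which arrestins bind, had a log2 fold change of -0.16 and the scaffold gene Magi3 of -0.22. Of 15 G protein and effector genes, all tested, 9 were positive, with a median of 0.03. Adcy6, a main adenylyl cyclase of the heart, was at 260 ± 38.6 and 311 ± 42.5 CPM, a log2 difference of 0.27 ± 0.10 (SE, edgeR adjusted p = 0.260), while Prkaca, the catalytic subunit of protein kinase A, and Gna11, a Gq-type subunit, stood at -0.12 and 0.09.

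Of 15 genes that make, carry or break down catecholamines and acetylcholine 10 were tested, 7 with a negative log2 fold change and a median of -0.14. Dbh, which converts dopamine to noradrenaline, was at 4.56 ± 1.31 CPM in wildtype and 2.85 ± 1.28 CPM in Epac1-PLN cells, a log2 difference of -0.71 ± 0.20 (SE, edgeR adjusted p = 0.138). Without the filter on low counts Dbh was 1 of the 498 genes called (adjusted p = 0.0119, edgeR). Over its alternatives the adjusted p of Dbh ranged from 0.0119 to 0.595. Pnmt, which makes adrenaline, had a log2 fold change of -0.72 at 3 to 27 counts per library, and of -0.42 without Epac1-PLN replicate 4. Th and Chat, the first enzymes of catecholamine and acetylcholine synthesis, had 0 counts in every library. The 5 Schwann cell and neuronal markers, which include Dbh and Th, summed to 5.02 to 8.74 CPM in wildtype and 4.00 to 6.95 CPM in Epac1-PLN libraries, and the part of such cells in Dbh was not tested.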

How the data were processed

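RNA of adult cardiomyocytes from 5 wildtype and 5 Epac1-PLN mice was sequenced on a HiSeq2000 after TruSeq library preparation, as the labels' protocols state. Raw read counts per Ensembl gene were deposited by the authors. The submitters' processing notes list STAR 2.3.0, HTSeq 0.5.4, FastQC 0.10.0, CASAVA 1.8.2, DESeq2 and DESeq, with the build mm10; the sources used here give no settings, annotation version or use of strand. The scaled table of the same libraries was not used.

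Genes passing filterByExpr were scaled by TMM and tested with edgeR 4.0.16 (quasi-likelihood, robust, terms for sex and genotype; R 4.3.3), with Benjamini-Hochberg adjustment over 12629 genes and a threshold of 0.05. The SE is the absolute log2 fold change over the square root of F. Levels are TMM-scaled CPM, given as mean ± SD. Ratios used counts plus 0.5. Correlations used log2 CPM and 100000 permutations. The limit set by a count of 0 covers counting error only. Only the genotype test was tried on simulated counts. The changes set there were larger than the fold changes reported for the receptor, kinase and arrestin genes.

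Libraries of 1 genotype differed by more than sampling noise in all 20 pairs (chi-square of 7.55 to 30.3 for each degree of freedom). Alternatives were other scalings, DESeq2 1.42.0, limma-voom (limma 3.58.1), 2 other count filters, no sex term, females alone, a block by replicate number and leaving out each library in turn. Transcript length and the alternatives of the Adra1a interaction were chosen after seeing the data. All 9 genes are named, with Rapgef3 and, of each pathway list, up to 3 tested genes with the smallest p; some of these are not reported here. Scarcer relatives, Th and Chat were named after their values were seen. The genes and lists were chosen with earlier results of these data known. Magi2, whose symbol stands on 3 lines of the table, was left out.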

Additional observations from a re-analysis of the deposited data

Results flagged for a closer look

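Adra1b in wildtype replicate 2, at 38.0 CPM, was set apart from the other 4 wildtype libraries, which lay between 57.8 and 64.7 CPM. The gap took 0.744 of the range of the group, above the Dixon limit of 0.71 for 5 libraries. Of 24 groups of 5 libraries tested (8 transcripts and 4 ratios in 2 genotypes) this was the only one past the limit, and chance flags about 1 in 20.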

How the results depend on the processing

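The log2 fold changes of Adrb1, Adra1a, Adra1b, Adrbk1 and Grk5 with genotype kept their direction in all 19 alternatives. Against 81 genes with genotype, 43 with sex and 0 with the interaction, DESeq2 called 265, 158 and 1. Without a filter beyond 1 count edgeR called 498, 521 and 164, among them 3, 1 and 1 of the 9 receptor, kinase and arrestin genes (Adrb1, Adra1b and Grk5 with genotype, Grk5 with sex, Adra1a for the interaction); the cause was not tested. Without the sex term 37 genes were called with genotype, and with females alone 4. A replicate block left 2 genes with genotype and 3 with sex, and 0 of those 9. Same-numbered libraries correlated at 0.35, -0.30, 0.14, -0.21 and 0.10 in their deviations from the genotype means. Sex was not removed from these deviations, and numbers 2 and 5 join a male with a female. The values therefore do not decide whether the numbers pair the libraries.

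With each library left out, 14 to 103 genes were called with genotype (the count fell more than 1.5 times when any library other than Epac1-PLN replicates 2 and 4 was left out), 18 to 93 with sex and 0 to 6 for the interaction. Of the 9 genes, 0 were called. Fold changes near 0 changed sign. With genotype, Arrb2 was at -0.0013 with limma-voom, -0.0065 with the replicate block and -0.12 to 0.14 with a library left out. Chrm2 ranged from -0.11 to 0.056, Arrb1 from -0.078 to 0.084 and Grk4 from -0.0082 to 0.23. With sex, Adrb1 ranged from -0.033 to 0.21, Adra1a from -0.069 to 0.21, Adra1b from -0.15 to 0.13 and Chrm2 from -0.12 to 0.026; with the replicate block Adrb1 was at 0.45, Adra1b at 0.52 and Chrm2 at -0.19, all uncalled. With females alone Adra1a was at -0.55 with genotype. Adcy6 was at 0.17 without Epac1-PLN replicate 5 and Prkaca at -0.070 without wildtype replicate 5. The genotype difference in the log2 ratio of Arrb1 to Arrb2 ranged from -0.081 to 0.19. That of Adra1b to Adra1a ranged from -0.10 to 0.083 and was 0.046 in females alone.

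That of Grk5 to Adrbk1 ranged from -0.71 to -0.48 with a library left out. Depth limits Adrb3, at 1 count in all, and Arrb2, at 26 to 72 counts per library.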
